A study of Rattus norvegicus with 9 samples.

Results

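Ahnak, Emp1, Map9, Zswim4 and RGD1560455 were followed across 9 RNA-seq samples of RBL-2H3 cells. This line was derived from a rat basophilic leukemia and serves as a mast cell (MC) model. They are 5 of the 18006 genes with values in these samples. They were chosen on measured values: each was higher after antigen than in Ctrl cells, and each was near or below its Ctrl level in cells pretreated with PF. None of them encodes a cytokine or an immediate early transcription factor. Their differences between the 3 groups are therefore given as a description, without a test.

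The samples were 3 Ctrl, 3 IgE/DNP and 3 PF. By the labels, IgE/DNP cells carried IgE against DNP (50 ng/mL, 12 h of sensitization) and then received the antigen DNP-HSA (100 ng/mL) for 4 h. PF cells had the same sensitization and antigen, with PF given for 1 h before the antigen. The labels do not say what PF is. Stimulation of the 3 PF samples is labelled as 4, 5 and 6 h in the field for each sample and as 4 h in the protocol field, so time cannot be told apart from replicate in this group. Ctrl cells are labelled untreated, while the protocol field describes sensitization for every sample, so whether Ctrl cells carried IgE is not settled. All 9 samples share the cell line, which is a tumour line and not a primary MC.

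Antigen that bridges IgE on the high-affinity receptor FcεRI starts a kinase cascade in MCs. Granules are released within minutes, and a wave of new transcription follows. The membrane and its skeleton are rebuilt in the same period: cortical actin is taken apart, granules travel along microtubules, and the cell surface ruffles. Ahnak encodes a giant scaffold protein under the plasma membrane that binds the annexin A2 and S100A10 complex and actin. Emp1 encodes epithelial membrane protein 1, a small protein that crosses the membrane 4 times and belongs to the PMP22 family. Map9 encodes a microtubule-associated protein (ASAP) that is needed for the mitotic spindle. The word structural describes the products of these 3 genes. It does not describe that of Zswim4, which is a protein with a SWIM zinc finger, a domain found in substrate receptors of cullin ubiquitin ligases. Nor does it describe that of RGD1560455, which carries the symbol P2ry10b in RefSeq under the same gene ID (302377) and encodes a G protein-coupled receptor of the P2Y10 type.

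Values are FPKM, fragments mapped to a gene relative to its transcript length and to the sequencing depth, so that levels are comparable between genes of different length. They summed to between 573023 and 630069 per sample, and the number of reads behind them is unknown. The labels give the tissue as peripheral blood. Of 10 MC markers 8 were listed, among them the FcεRI chains Fcer1a, Ms4a2 and Fcer1g, and their summed level was 2739 to 2771 FPKM in Ctrl, 2552 to 2586 in IgE/DNP and 2694 to 2738 in PF samples. The 15 listed markers of T cells, B cells, macrophages, fibroblasts, epithelial and erythroid cells summed to 9.72 to 10.7 FPKM in Ctrl, 9.97 to 11.2 in IgE/DNP and 10.7 to 12.1 in PF samples. Cd3e made up most of that sum, and the erythroid markers Hbb and Alas2 were each at 0.35 FPKM or less. In bulk samples like these, fewer cells that express a gene and less RNA per cell cannot be told apart.

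All 5 genes had 3 IgE/DNP samples above the 3 Ctrl samples and above the 3 PF samples, with no overlap. As background, 14.7% of the 10392 genes tested passed a limma adjusted p of 0.05 as higher in IgE/DNP than in Ctrl, and 30.7% of 10329 passed as lower in PF than in IgE/DNP. Nothing is read from the 5 genes against these shares, since the same contrasts chose them. Differences on the log2 scale are of log2(FPKM + 1), which understates the change of genes with low values.

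**Figure D1:**
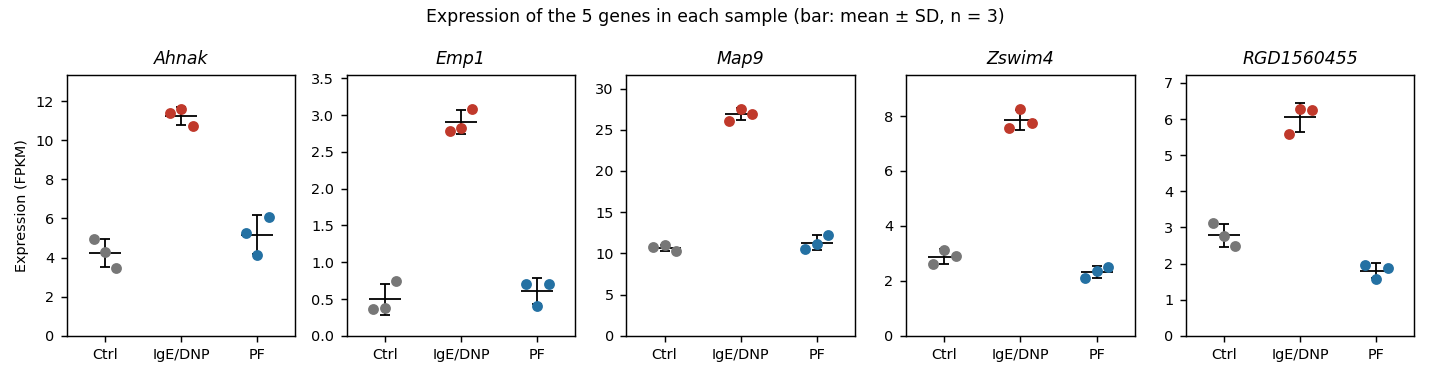
FPKM of each gene in the 9 samples, with 1 point for each sample and a bar for the mean ± SD (n = 3) of Ctrl (grey), IgE/DNP (red) and PF (blue). In every panel the 3 red points lie above the other 6, and the blue points lie within the range of the grey ones for Emp1, overlap it with 2 points above it for Ahnak and Map9, and lie below it for Zswim4 and RGD1560455.

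Ahnak, the membrane scaffold, had 4.93, 4.29 and 3.49 FPKM in its Ctrl samples. Its IgE/DNP values were 11.4, 11.6 and 10.7 FPKM, and its PF values were 5.27, 4.13 and 6.10 FPKM. All antigen samples without PF were high. The PF and Ctrl ranges overlapped, with 2 of the 3 PF samples above the highest Ctrl sample. The means were 4.24 ± 0.721, 11.2 ± 0.475 and 5.17 ± 0.989 FPKM (SD, n = 3 each). IgE/DNP was thus 2.65 times the Ctrl mean, a log2 difference of 1.23 with a within-group SD of 0.15. From IgE/DNP to PF the log2 difference was -1.0, with a within-group SD of 0.17. The coefficient of variation of Ahnak was 17.0% in Ctrl, 4.22% in IgE/DNP and 19.1% in PF samples.

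Emp1, the four-span membrane protein, was the lowest of the 5 genes in every group. Ctrl samples had 0.36, 0.38 and 0.74 FPKM and IgE/DNP samples 2.79, 2.83 and 3.09 FPKM. PF samples had 0.70, 0.40 and 0.71 FPKM, within the Ctrl range. Emp1 had the largest ratio of the 5, with an IgE/DNP mean of 2.9 ± 0.163 FPKM that was 5.89 times the Ctrl mean of 0.493 ± 0.214 FPKM. The log2 difference was 1.39 for IgE/DNP against Ctrl and -1.29 for PF against IgE/DNP. Only the IgE/DNP samples reached 1 FPKM, so the gene passed the filter on low values through that group alone, and with 6 samples below 1 FPKM its ratio rests on small denominators. Its promoter is shown because it held 2 matches to TGANTCA, a form of the site of AP-1, the factor that Fos and Jun proteins make up. The 250 bases before the RefSeq start site on GRCr8 (chr4:169943980-169944229, plus strand) are given 5′ to 3′, with the matches in capitals.

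Emp1: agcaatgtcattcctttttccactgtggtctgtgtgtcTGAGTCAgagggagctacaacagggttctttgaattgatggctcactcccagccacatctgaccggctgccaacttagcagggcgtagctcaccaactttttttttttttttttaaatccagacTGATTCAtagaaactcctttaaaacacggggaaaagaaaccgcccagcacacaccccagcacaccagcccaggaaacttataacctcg

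The first base of TGAGTCA was at position -212 from the start site and that of TGATTCA at -88. Searched on both strands from 250 bases before to 50 bases after the start, 7.33% of 33469 rat promoters held TGANTCA at least once and 0.415% at least 2 times.

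Map9, the microtubule-associated protein, was the highest of the 5 genes in every group. It was at 10.82, 10.99 and 10.25 FPKM in Ctrl, 26.12, 27.57 and 26.93 FPKM in IgE/DNP, and 10.5, 11.16 and 12.29 FPKM in PF samples. The IgE/DNP samples stood apart from the other 6, and the PF range overlapped the Ctrl range, with 2 PF samples above the highest Ctrl sample. Map9 was the most even of the 5 between replicates, with a coefficient of variation of 3.63% in Ctrl, 2.70% in IgE/DNP and 8.0% in PF samples. The IgE/DNP mean was 26.9 ± 0.727 FPKM against 10.7 ± 0.388 FPKM in Ctrl, a ratio of 2.51 and a log2 difference of 1.25 with a within-group SD of 0.04. The PF mean of 11.3 ± 0.905 FPKM gave a log2 difference of -1.18 from IgE/DNP. Its promoter is shown as one without a match, since Map9 was the member closest in pattern to Ahnak, Emp1 and Zswim4 (given further on). These are the 250 bases before its start on GRCr8 (chr2:170006497-170006746, plus strand).

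Map9: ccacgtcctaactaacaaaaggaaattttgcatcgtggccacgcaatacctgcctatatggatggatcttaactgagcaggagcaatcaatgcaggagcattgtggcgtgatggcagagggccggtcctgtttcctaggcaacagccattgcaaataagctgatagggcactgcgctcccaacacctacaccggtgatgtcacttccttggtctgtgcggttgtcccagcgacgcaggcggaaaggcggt

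None of the motifs searched occurred in the Map9 window. They were TGANTCA, TGACGTCA (the cAMP response element), GCGNGGGCG (the site of EGR factors) and the CArG box, the site of serum response factor.

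Zswim4, the SWIM zinc finger gene, was at 2.60, 3.13 and 2.92 FPKM in Ctrl samples. It was at 7.58, 8.27 and 7.73 FPKM in IgE/DNP samples and at 2.09, 2.34 and 2.51 FPKM in PF samples. Each PF sample was below each Ctrl sample. The IgE/DNP mean of 7.86 ± 0.363 FPKM was 2.73 times the Ctrl mean of 2.88 ± 0.267 FPKM, a log2 difference of 1.19. From IgE/DNP to PF (2.31 ± 0.211 FPKM) the log2 difference was -1.42, the largest fall of the 5 on this scale.

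RGD1560455, the P2Y10-type receptor gene, was at 3.12, 2.76 and 2.48 FPKM in Ctrl and at 5.59, 6.29 and 6.26 FPKM in IgE/DNP samples. PF samples had 1.96, 1.56 and 1.88 FPKM, all below the lowest Ctrl sample. It had the smallest antigen difference of the 5, with an IgE/DNP mean of 6.05 ± 0.396 FPKM against 2.79 ± 0.321 FPKM, a ratio of 2.17 and a log2 difference of 0.90. It had the lowest PF level against Ctrl, with a PF mean of 1.80 ± 0.212 FPKM, and a log2 difference of -1.33 from IgE/DNP. Its promoter window was 37.7% GC with 3 CpG dinucleotides, the lowest of the 4 windows described, against medians of 51.7% and 7 over all promoters. The Ahnak window was the richest of the 4, at 66.3% GC with 20 CpG dinucleotides, while the Emp1 window had 48.7% and 5, and the Map9 window 54.7% and 14. Neither the Ahnak nor the RGD1560455 window held any of the 4 motifs. TGACGTCA, GCGNGGGCG and the CArG box were in none of the 4 windows, and 1.83%, 4.98% and 1.64% of all promoters held them. A match is only a run of letters in this window, and a window without one says nothing about binding elsewhere.

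In order of level, Map9 came first in all 3 groups, then Ahnak, then Zswim4 and RGD1560455, then Emp1. In Ctrl samples Zswim4 and RGD1560455 did not differ beyond their spread, at 2.88 ± 0.267 and 2.79 ± 0.321 FPKM. Both were separate in IgE/DNP and in PF samples, with Zswim4 above RGD1560455 and no overlap, and the other neighbours in this order did not overlap in any group. Among all 18006 genes, ordered from the highest level down, Map9 moved from place 6136 in Ctrl to 3443 in IgE/DNP and 5623 in PF samples. Emp1 moved from place 11098 to 8942 and 10703. By log2 difference from Ctrl the genes stood at places 17 (Emp1), 26 (Map9), 28 (Ahnak), 30 (Zswim4) and 50 (RGD1560455) of the 10392 genes tested, counted from the largest increase. Their places in PF against IgE/DNP, counted from the largest decrease among 10329 genes, were 64 for Zswim4, 83 for RGD1560455, 92 for Emp1, 123 for Map9 and 218 for Ahnak. The same contrasts chose the genes, so these places are a description and no support. Emp1 was among the genes tested only through its IgE/DNP samples, where it is high.

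PF samples did not sit at one common level relative to Ctrl. On a scale with the Ctrl mean at 0% and the IgE/DNP mean at 100%, the mean PF level was at 13.3% for Ahnak, 4.56% for Emp1 and 3.89% for Map9. These 3 genes had PF samples on both sides of the Ctrl mean, from -1.52% to 26.6% for Ahnak, from -3.87% to 8.99% for Emp1 and from -1.15% to 9.91% for Map9. For Zswim4 the mean was -11.5%, with the PF samples between -15.9% and -7.50%. For RGD1560455 it was -30.3%, with the samples between -37.6% and -25.4%. The log2 differences of PF from Ctrl were 0.23 for Ahnak, 0.11 for Emp1, 0.07 for Map9, -0.23 for Zswim4 and -0.43 for RGD1560455. Of 10361 genes tested in PF against Ctrl, 34.6% passed as lower and 23.1% as higher. Emp1 was below the filter in this comparison, so 4 of the 5 genes were among those 10361.

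**Figure D2:**
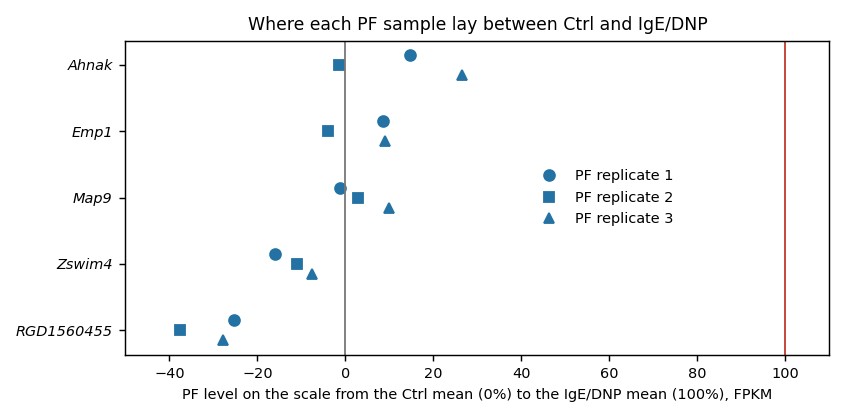
Level of each PF sample on a scale from the Ctrl mean (0%, grey line) to the IgE/DNP mean (100%, red line), computed on FPKM, with 1 marker for each PF replicate. Every marker lies at or below 26.6%, those of Ahnak, Emp1 and Map9 lie on both sides of 0%, and those of Zswim4 and RGD1560455 all lie below 0%.

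By the hours labelled for each sample, the PF values of Zswim4 were 2.09 FPKM at 4 h, 2.34 at 5 h and 2.51 at 6 h, and those of Map9 were 10.5, 11.2 and 12.3 FPKM. Ahnak, Emp1 and RGD1560455 had their lowest PF value in the sample labelled 5 h. With 1 sample at each labelled time no comparison of times was possible. With the PF sample that both fields place at 4 h taken alone, Map9 was at -0.02 against Ctrl on the log2 scale, where the 3 samples gave 0.07.

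The genes nearest in pattern were searched among the 10503 genes that reached 1 FPKM in 3 or more samples, by the root mean square difference (RMS) over the 9 samples of log2(FPKM + 1) minus the Ctrl mean. Within the set, Ahnak and Map9 were the closest pair (RMS 0.158), and Emp1 and RGD1560455 the farthest (0.451). Map9 was also among the 3 nearest genes of Ahnak, Emp1 and Zswim4, at rank 2 each time. The nearest gene to Map9 was Spry4 (RMS 0.0865), which encodes a Sprouty inhibitor of receptor kinase signalling, at 1.79 ± 0.191 FPKM in Ctrl, 5.27 ± 0.0361 in IgE/DNP and 2.06 ± 0.211 in PF samples. The nearest to Ahnak was Zfp36l1 (0.156), whose protein binds AU-rich mRNAs and leads to their decay, at 35.9 ± 1.35, 88.2 ± 3.87 and 42.6 ± 1.39 FPKM. Rabgef1, which encodes an exchange factor for the endosomal GTPase Rab5, was nearest to both Emp1 (0.167) and Zswim4 (0.155), at 9.0 ± 0.501, 24.6 ± 1.07 and 8.74 ± 0.791 FPKM.

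RGD1560455 had other neighbours than the rest of the set. Its nearest genes were Foxp1 (RMS 0.101), a forkhead transcription factor gene, Dusp4 (0.123), which encodes a phosphatase of MAP kinases, and Cass4 (0.134), a gene of the Cas scaffold family. Dusp4 was at 67.3 ± 1.95 FPKM in Ctrl, 112 ± 0.896 in IgE/DNP and 50.2 ± 2.33 in PF samples. All 3 had PF means below their Ctrl means, as RGD1560455 did. The third gene nearest to Zswim4 was Maff (0.196), a small Maf transcription factor gene, which was also below Ctrl in PF samples, at 1.86 ± 0.327 against 2.96 ± 0.268 FPKM. These genes were found by their likeness to the members, so their patterns are no further evidence for them.

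**Figure D3:**
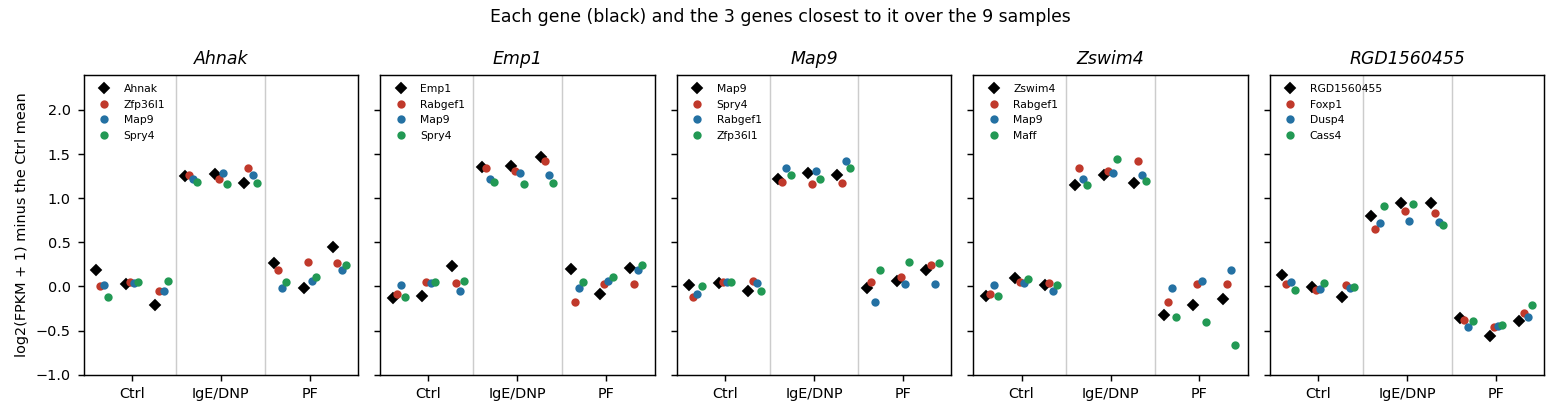
log2(FPKM + 1) minus the Ctrl mean for each of the 5 genes (black diamonds) and the 3 genes nearest to it by RMS (coloured circles), with 1 position for each sample and replicates in order of their number. The nearest genes follow Ahnak, Emp1 and Map9 back to about 0 in PF samples, while those of RGD1560455 lie below 0 there.

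RGD1560455 lies between 2 other receptor genes on chromosome X, P2ry10 and Gpr174, in the RefSeq gene order of GRCr8. Nothing in the labels says that replicates came from separate cultures, so p-values measure only the spread between these samples, which may be technical. P2ry10, a paralog of RGD1560455, was at 12.65, 11.78 and 11.36 FPKM in Ctrl, 16.79, 18.04 and 17.52 in IgE/DNP and 15.24, 14.35 and 15.84 in PF samples. It rose with antigen by 0.51 on the log2 scale (SE 0.0554, limma adjusted p = 5.13e-04) and, unlike RGD1560455, was above Ctrl in PF samples, by 0.32 (SE 0.0609, limma adjusted p = 0.00214). From IgE/DNP to PF its log2 difference was -0.19 (limma adjusted p = 0.0151), a call that was lost with scaling by median ratios (adjusted p = 0.0523) or without IgE/DNP replicate 2 (adjusted p = 0.0573). Gpr174, a receptor gene for lysophosphatidylserine, was also higher in PF than in Ctrl samples, by 0.29 (limma adjusted p = 0.00256). Gpr174 was higher in IgE/DNP than in Ctrl by 0.22 (limma adjusted p = 0.0185), but not without Ctrl replicate 2 (0.0566), IgE/DNP replicate 1 (0.0502) or IgE/DNP replicate 2 (0.0669). P2ry10 and RGD1560455 are paralogs, and how reads were divided between them was not tested.

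**Figure D4:**
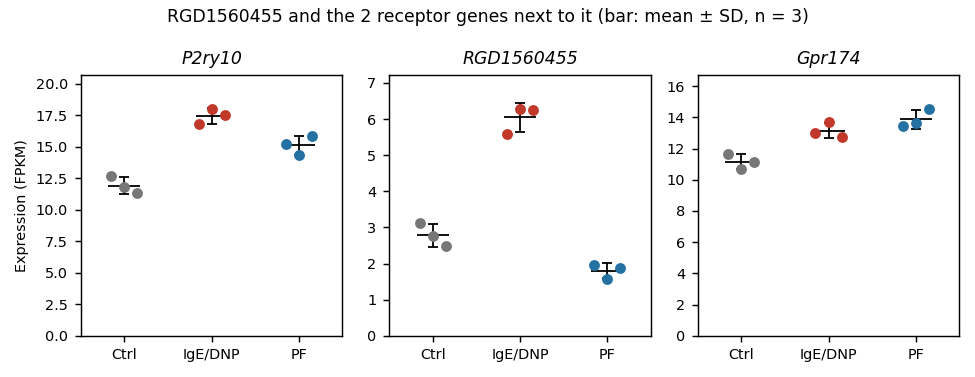
FPKM of RGD1560455 and the receptor genes before (P2ry10) and after it (Gpr174) on chromosome X, with 1 point for each sample and a bar for the mean ± SD (n = 3). The PF samples of RGD1560455 lie below its Ctrl samples, and those of P2ry10 and Gpr174 lie above theirs.

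The neighbours of the other 4 genes were looked up in the same way. Those of Emp1 (Fam234b, Grin2b) and Map9 (Gucy1a1, Rbm46) were below 1 FPKM in every sample. Beside Ahnak, Eef1g, a translation elongation factor gene, ranged from 1239 to 1475 FPKM and was higher in PF than in IgE/DNP samples by 0.16 (limma adjusted p = 0.00555) and than in Ctrl samples by 0.19 (limma adjusted p = 0.00298), and Asrgl1 passed in no comparison. Beside Zswim4, LOC288913 was higher in PF than in IgE/DNP samples by 0.20 (limma adjusted p = 0.00358) and than in Ctrl samples by 0.23 (limma adjusted p = 0.0406), and RGD1306072 passed in none. Of the 6 tested neighbours of the 5 genes, P2ry10 and Gpr174 were the 2 called in IgE/DNP against Ctrl, both higher, beside 14.7% of all genes. In PF against Ctrl 4 of the 6 were higher (P2ry10, Gpr174, Eef1g and LOC288913), beside 23.1% of all genes. In that comparison the calls of P2ry10 and Gpr174 held under both other scalings. No call of Eef1g or LOC288913 was looked up under them. The neighbours were looked up after the values had been seen.

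Relatives and partners of the members were then counted in 5 lists with 101 genes listed. In IgE/DNP against Ctrl, 17 of 80 tested were higher and 10 lower, where 14.7% of all genes tested were higher and 14.4% lower. In PF against IgE/DNP, 21 of 79 were higher and 23 lower, beside 18.1% and 30.7% of all genes. In PF against Ctrl, 31 of 80 were higher and 23 lower, beside 23.1% and 34.6%. The median log2 difference of the listed genes was 0.03, 0.01 and 0.02 in these comparisons, and that of all genes -0.01, -0.04 and -0.05. The split in the PF comparisons moved with scaling: in PF against IgE/DNP it was 30 higher and 18 lower with median ratios, and 9 and 33 with scaling to the mean sum. Over all genes, 37.1% of the calls in that comparison were higher, against 51.5% with median ratios and 16.8% with the mean sum.

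Among direct relatives, Ahnak2, which encodes a protein of the same kind as Ahnak, was at 0.28 FPKM or less. In the Emp1 family, Emp3 was higher in IgE/DNP than in Ctrl by 0.35 (SE 0.0602, limma adjusted p = 0.00387), from 76.0 to 97.4 FPKM, and was at 110 ± 5.48 FPKM in PF samples. Pmp22, at 0.86 to 1.54 FPKM, passed in no comparison, and Emp2 was not analysed here. Cldnd1, a claudin domain gene, is in the same list. It rose by 0.47 with antigen (limma adjusted p = 1.25e-04) and fell by 0.76 with PF (limma adjusted p = 2.08e-06), to 55.9 ± 1.97 FPKM against 68.4 ± 0.467 in Ctrl.

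Of the 19 tested microtubule-associated proteins around Map9, 3 were higher and 4 lower with antigen, beside 14.7% and 14.4% of all genes. In PF against IgE/DNP samples 1 was higher and 11 lower, beside 18.1% and 30.7% of all genes. The median log2 difference of this comparison was -0.20, beside -0.04 for all genes. With median ratios 9 of the 19 were lower, beside 2600 of 10318 genes. With the mean sum 14 were lower, beside 4302 of 10320 genes. Clip2, a microtubule plus-end protein gene, was 68.8 ± 1.04 FPKM in IgE/DNP and 38.5 ± 1.95 in PF samples (limma adjusted p = 1.39e-06). Map1s fell from 17.9 ± 0.936 to 10.1 ± 0.452 FPKM (limma adjusted p = 1.08e-05). Both were below their Ctrl means in PF samples, whereas the Map9 PF samples overlapped Ctrl. With antigen, Map1s rose by 0.33 (limma adjusted p = 0.00299) and Clip2 by 0.16 (limma adjusted p = 0.0164), the latter not without IgE/DNP replicate 1 (0.0602). Map9 was at 1.25, but it was chosen by this contrast.

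Of the 13 tested genes of the SWIM family and of cullin ligase subunits, 2 were lower with antigen and 11 were not called. The 2 lower are 15.4% of the 13, where 14.4% of all genes were lower and 14.7% higher. In PF against IgE/DNP, 4 were higher and 4 lower, each 30.8% of the 13, where 18.1% of all genes were higher and 30.7% lower. Zswim1 was at 8.40 ± 0.450 FPKM in Ctrl, 7.80 ± 0.441 in IgE/DNP and 3.51 ± 0.201 in PF samples, a log2 difference of -0.96 from IgE/DNP to PF (SE 0.0707, limma adjusted p = 9.94e-06). Zswim3 was also lower in PF, at 5.06 ± 0.407 against 7.16 ± 0.706 FPKM (limma adjusted p = 0.00269). Neither was called between IgE/DNP and Ctrl, with log2 differences of -0.10 for each. Zswim8 was lower in IgE/DNP than in Ctrl, with a log2 difference of -0.26 (limma adjusted p = 0.0187), a call lost without Ctrl replicate 1 (0.0521), Ctrl replicate 2 (0.0553) or IgE/DNP replicate 1 (0.0615). Zswim7 and Zswim9 passed in no comparison, and Zswim2, Zswim5 and Zswim6 were below the filter. Map3k1, which encodes a MAP kinase kinase kinase with a SWIM domain, was at 35.5 ± 1.53, 27.0 ± 1.22 and 20.1 ± 2.19 FPKM in Ctrl, IgE/DNP and PF samples, lower than Ctrl in IgE/DNP (limma adjusted p = 0.0011) and in PF (limma adjusted p = 4.84e-05).

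Of 9 tested partners and relatives of Ahnak, 3 were higher and 1 lower with antigen, beside 14.7% and 14.4% of all genes. The 1 lower was Prx, which passed the filter only through the Ctrl samples, where it is high, so its call is no support. Of 8 tested in PF against IgE/DNP, 2 were higher and 1 lower, beside 18.1% and 30.7% of all genes. That split was 3 and 1 with median ratios, beside 2758 higher and 2600 lower of 10318 genes tested. It was 0 and 3 with the mean sum, beside 869 and 4302 of 10320. Anxa2 and S100a10, the genes of the complex that Ahnak binds, were not called with antigen. Anxa2 was at 124 ± 0.745 FPKM in Ctrl, 120 ± 0.867 in IgE/DNP and 129 ± 2.12 in PF samples, and its PF against IgE/DNP difference of 0.10 (limma adjusted p = 0.0189) was not called with scaling to the mean sum (0.937), nor without IgE/DNP replicate 1 (0.0627), IgE/DNP replicate 2 (0.0655), PF replicate 1 (0.0527) or PF replicate 2 (0.0514). S100a10 had 2.91 ± 0.734, 3.58 ± 0.404 and 2.9 ± 0.207 FPKM and was called in no comparison. Anxa1, which encodes the membrane-binding annexin A1, rose with antigen from 285 ± 5.46 to 425 ± 3.43 FPKM (limma adjusted p = 1.12e-05) and stood at 376 ± 13.6 in PF samples, above Ctrl (limma adjusted p = 5.51e-05). Of 34 tested genes of cortical actin, tubulin and the membrane skeleton, 9 were higher and 3 lower with antigen, beside 14.7% and 14.4% of all genes. In PF against IgE/DNP 12 were higher and 6 lower, beside 18.1% and 30.7% of all genes. They were 19 and 3 with median ratios and 5 and 10 with the mean sum, beside the counts over all genes given above. In PF against Ctrl 19 were higher and 4 lower, beside 23.1% and 34.6% of all genes. With the mean sum they were 9 and 7, beside 1575 higher and 4316 lower of 10343 genes tested. Lmna (nuclear lamin A), Tpm1 (tropomyosin 1) and Cd44 (a hyaluronan receptor) had the largest differences, at 0.61, 0.57 and 0.53 on the log2 scale (limma adjusted p = 8.09e-04, 0.0012 and 0.00227), and all 3 stayed above Ctrl in PF samples, by 0.52, 0.55 and 0.44 (limma adjusted p = 4.41e-04, 4.97e-04 and 9.72e-04). Actb, the beta-actin gene with group means of 2127 FPKM in Ctrl, 2049 in IgE/DNP and 2334 in PF samples, was higher in PF than in IgE/DNP samples by 0.19 (limma adjusted p = 0.00147).

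**Figure D5:**
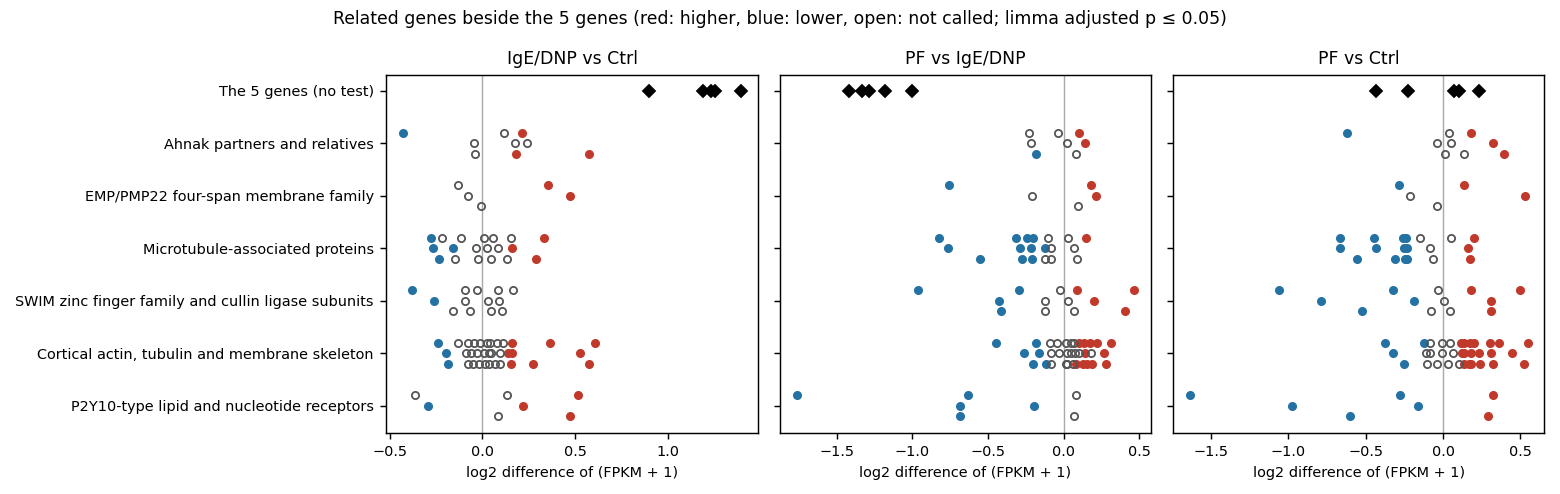
Log2 difference of (FPKM + 1) in the 3 comparisons for the 5 genes (black diamonds, no test) and for genes of the related lists (1 point for each gene, red higher, blue lower, open not called at a limma adjusted p of 0.05). In IgE/DNP against Ctrl the 5 genes lie at 0.90 to 1.39 and the listed genes at or below 0.61. The 5 genes were chosen by this contrast, so nothing is read from their place apart.

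The receptor genes around RGD1560455 were put in a list after the values had been seen, so their count is a description. Of 7 tested, 5 were lower in PF than in IgE/DNP samples, beside 30.7% of all genes. The count was 4 with median ratios, beside 2600 of 10318 genes. It was 3 of 6 tested without IgE/DNP replicate 2, beside 2626 of 10162 genes. Gpr171 went from 35.8 ± 0.622 to 9.83 ± 0.786 FPKM, P2ry14 from 53.6 ± 2.18 to 32.9 ± 0.956, Lpar6 from 48.4 ± 1.53 to 30.8 ± 0.472 and Gpr183 from 1.47 ± 0.287 to 0.540 ± 0.199, the fifth being P2ry10. Gpr183 passed the filter of this comparison only through the IgE/DNP samples, where it is high, so its call is no support for the count. Of these only Lpar6 and P2ry10 were also higher with antigen than in Ctrl, as RGD1560455 was, Lpar6 by 0.47 (limma adjusted p = 2.35e-04). Lpar6 was lower in PF than in Ctrl, with a log2 difference of -0.16 (limma adjusted p = 0.0134), but not with median ratios (0.0893).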

How the data were processed

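RNA-seq was done on 9 RBL-2H3 samples, 3 in each group. Per the labels and the methods, the authors filtered reads with SOAPnuke, mapped them to rn6 with HISAT2 2.0.4, aligned them with Bowtie2 2.2.5 and quantified them with RSEM 1.2.12. The deposited values, 1 for each gene and sample, were read as FPKM, since their heading names no unit. They hold no counts, so counting error cannot be given and precision rests on 3 replicates. Of 38490 gene rows, 20484 had no value in any sample. Genes stood in 5 different orders, and samples were joined by gene ID.

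Each pair of groups was compared with limma 3.58.1 in R 4.3.3 (lmFit, then eBayes with its trend option) on log2(FPKM + 1). A gene was tested if 3 or more of the 6 samples reached 1 FPKM. P-values were adjusted by Benjamini-Hochberg over all genes tested and called at 0.05. The step was tried on simulated data in which the changed genes differed by 1 on the log2 scale. That says nothing about smaller differences. The members, the lists of relatives and the rules for naming genes were chosen with earlier results of these data known. List genes are named if they are among the 5 largest called differences of a comparison, the 2 highest in level of a list, or direct relatives, and a few others (S100a10 among them) were chosen after their values were seen. Alternatives were another pseudocount, threshold, scaling or filter, all 9 samples in the fit, a replicate block, and leaving out each sample. Limma without trend and PF replicate 1 alone were added after the data were seen, as were the chromosome neighbours and the P2Y10-type list. Promoters are RefSeq sequences on GRCr8, matched by gene ID for 5 of 5 members. The Zswim4 promoter and 1 marker gene are not reported here. No coordinates were converted between builds.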

Additional observations from a re-analysis of the deposited data

How the results depend on the processing

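The rise and the fall of the 5 genes kept their direction in all 95 alternatives, and their PF difference from Ctrl in 49 of 50. The same contrasts chose the genes, and the groups did not overlap in them. The kept direction of the rise and the fall was thus largely fixed in advance and is no support. With a pseudocount of 0.1, log2 differences of IgE/DNP from Ctrl became 1.40 for Ahnak, 2.4 for Emp1, 1.32 for Map9, 1.42 for Zswim4 and 1.09 for RGD1560455. Those of PF from IgE/DNP became -2.13 for Emp1, -1.72 for Zswim4 and -1.70 for RGD1560455, and that of PF from Ctrl -0.60 for RGD1560455. Scaling to the mean sum gave -1.27 for Map9 from IgE/DNP to PF, and moved the median of all genes by about as much, to -0.13. With PF replicate 1 alone, added after the data were seen, Map9 was at -1.28 against IgE/DNP and turned to -0.0227 against Ctrl, and Zswim4 was at -1.52 and -0.33. Leaving out 1 sample at a time moved no member by more than its spread: in PF against Ctrl RGD1560455 ranged from -0.49 to -0.37, Zswim4 from -0.28 to -0.18, Ahnak from 0.12 to 0.36, Emp1 from 0.04 to 0.22 (0.11 with all samples) and Map9 from 0.02 to 0.12 (0.07 with all samples). At a threshold of 0.01, calls in IgE/DNP against Ctrl went from 3031 to 1469 (817 higher, 652 lower) and those among the listed relatives from 27 to 15. The other 82 alternatives kept the total count within 1.5 times, but the split by direction moved more. With the mean sum, calls in PF against IgE/DNP were 869 higher and 4302 lower, where the main fit had 1870 and 3172. Samples with the same replicate number deviated together with correlations of -0.0822 to 0.189, all of them positive in PF against Ctrl. These are deviations from means of 3 samples, so they cannot settle whether the numbers pair samples. A fit with the replicate number as a block called 2697, 4675 and 6009 genes in IgE/DNP against Ctrl, PF against IgE/DNP and PF against Ctrl, where the fit without it called 3031, 5042 and 5975. Depth in reads is unknown, which limits Emp1 most, as its Ctrl and PF samples are below 1 FPKM.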

Other observations

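Further genes of the lists of relatives had these values. Nkg7, a granule membrane gene of the four-span list, was at 540 ± 18.1 FPKM in Ctrl, 512 ± 8.98 in IgE/DNP and 595 ± 25.1 in PF samples, higher in PF than in IgE/DNP (limma adjusted p = 0.00151). Elob, which encodes elongin B, an adaptor of cullin ligases, was at 290 ± 15.3, 308 ± 8.37 and 409 ± 30.6 FPKM and was higher in PF than in IgE/DNP by 0.41 on the log2 scale (SE 0.0515, limma adjusted p = 2.49e-04). Mapre3, a microtubule plus-end binding gene, was at 2.38 ± 0.101, 2.13 ± 0.338 and 1.13 ± 0.168 FPKM, a log2 difference of -0.55 from IgE/DNP to PF (limma adjusted p = 0.00307). All 3 PF against IgE/DNP calls held under both other scalings. Stmn1, which encodes the tubulin-binding protein stathmin, was at 219 ± 7.25, 226 ± 8.08 and 251 ± 10.1 FPKM and was higher in PF than in IgE/DNP (limma adjusted p = 0.0136), though not with the mean sum (0.239) or without IgE/DNP replicate 2 (0.0544). Mapre2 was at 66.7 ± 1.44, 81.7 ± 1.22 and 74.8 ± 0.402 FPKM, higher in IgE/DNP than in Ctrl (limma adjusted p = 6.56e-04). Its lower PF level against IgE/DNP (limma adjusted p = 0.00894) was not called with median ratios (0.129). Rbx1, a ring subunit of cullin ligases, was at 51.9 ± 2.19, 55.3 ± 0.604 and 58.9 ± 0.923 FPKM, and its PF against IgE/DNP call (limma adjusted p = 0.0472) was lost without any 1 of the 6 samples. Vim, the vimentin gene, was at 2790 ± 54.3, 2865 ± 62.7 and 2914 ± 69.2 FPKM and was called in no comparison, though lower in PF than in IgE/DNP with the mean sum and higher in PF than in Ctrl with median ratios. Prx, an Ahnak relative, was at 1.41 ± 0.165, 0.790 ± 0.0656 and 0.570 ± 0.0985 FPKM, and passed the filter against IgE/DNP and PF only through the Ctrl samples.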
